A study of Homo sapiens with 4 samples.

Results

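This account concerns the RNA that came down with EXOSC10, set side by side with and without doxycycline, in LM2-4175 cells. LM2-4175 cells descend from the breast carcinoma line MDA-MB-231 and were selected for metastasis to the lung. All cells held CerS4, a ceramide synthase, under a promoter that doxycycline switches on, and grew in puromycin and hygromycin. One culture condition was untreated and the other received 5 µg/mL doxycycline for 48 h. Antibody to EXOSC10 or control IgG was used on each, and the RNA that came down was then sequenced, so the comparison uses 2 of 4 libraries. There was 1 library per group, and therefore no difference below has a replicate check or a p-value. No doxycycline-treated line without the construct was among the samples, so effects of doxycycline itself and of the induced construct cannot be told apart. The study asked how the complex of PD-L1 and Caprin-1 acts on mRNA degradation when lipid metabolism is altered.

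EXOSC10 is a 3′ to 5′ exoribonuclease of the nuclear RNA exosome, the complex that trims and degrades RNA from its 3′ end. In the nucleus it helps to mature ribosomal RNA and small nucleolar RNA and removes non-coding and faulty transcripts, with adaptors such as the TRAMP and NEXT complexes. Caprin-1 is a cytoplasmic RNA-binding protein that joins G3BP proteins in stress granules. Immunoprecipitated RNA holds both RNA bound to the antibody's target and RNA that stays on beads or antibody without it, and the IgG libraries measure the latter.

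The untreated EXOSC10 library held 4233759 estimated reads and the doxycycline EXOSC10 library 5511316. Genes of ribosomal RNA, set apart here, took 75.8% and 56.3% of them, which left 1023402 and 2408224 reads for all other genes. The IgG libraries held 1053022 reads outside ribosomal RNA untreated and 1229762 with doxycycline. A gene's level is given as scaled CPM: reads per 1000000 of the library, divided by a trimmed-mean (TMM) scaling factor. A ratio is the log2 of scaled CPM with doxycycline over untreated, with 0.2 CPM added to both sides, which understates the ratio of low genes. Its interval is an exact 95% interval on the estimated reads and covers counting error only. The interval leaves out the 0.2 CPM, so the ratio of a low gene can lie well off its centre. A gene was called higher or lower when its EXOSC10 libraries held 100 reads together and the ratio reached 2-fold.

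Of 12820 genes outside ribosomal RNA, 6566 had 100 reads. Among these 384 were 2-fold higher with doxycycline (5.85%) and 264 were 2-fold lower (4.02%). In the IgG pair, 79 of 3009 genes were 2-fold higher (2.63%) and 115 were 2-fold lower (3.82%). The median EXOSC10 ratio over all genes tested was -0.06, with quartiles of -0.42 and 0.34. With plain CPM the scaling factors move a ratio up by 1.04 before the 0.2 CPM is added, the median becomes 0.97, the split becomes 3149 higher and 8 lower, and a lower ratio short of about that size can turn positive. With median-of-ratios factors the split is 313 higher and 411 lower, and KDSR, KDM4B and VPS25, named below, fall short of 2-fold. By the total outside ribosomal RNA, lower calls close to 2-fold, such as those of TUBA1B, TUBA1A, CNOT1 and ZC3H18, fall short of it. The IgG scaling factors were 0.702 untreated and 0.451 with doxycycline, so plain CPM lowers each IgG ratio and can turn a small rise into a fall. Directions below, with either antibody, are therefore relative to the other genes of the same libraries, and lists are set against the median of all genes. Counts of list members called are read against the shares of all genes, 5.85% higher and 4.02% lower.

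The higher and the lower genes differed in how much sequence lay behind them. The 384 higher genes had a median of 18 reads untreated and 130 with doxycycline, and 230 of them had under 20 reads untreated. The 264 lower genes had a median of 82.0 reads untreated and 91.5 with doxycycline, in a library with more reads. Of 969 genes with at least 200 reads in each EXOSC10 library, 0 were 2-fold higher and 37 were 2-fold lower, and their ratios ran from -1.64 to 0.57. With at least 50 reads in each EXOSC10 library, 10 of 4349 genes were 2-fold higher (0.23%) and 245 were 2-fold lower (5.63%). Counts of lists at that minimum are read against these shares. A read was worth 0.236 CPM untreated and 0.181 with doxycycline, over scaling factors of 1.24 and 2.55. A 2-fold higher gene thus needs many more reads with doxycycline than untreated. Minimums on each library therefore take out higher calls more readily than lower ones, and the split under them partly reflects this. A further 603 genes had at least 20 reads with doxycycline and none untreated, against 23 genes the other way. Depth thus moves with the higher calls, and its part in them was not tested.

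**Figure D1:**
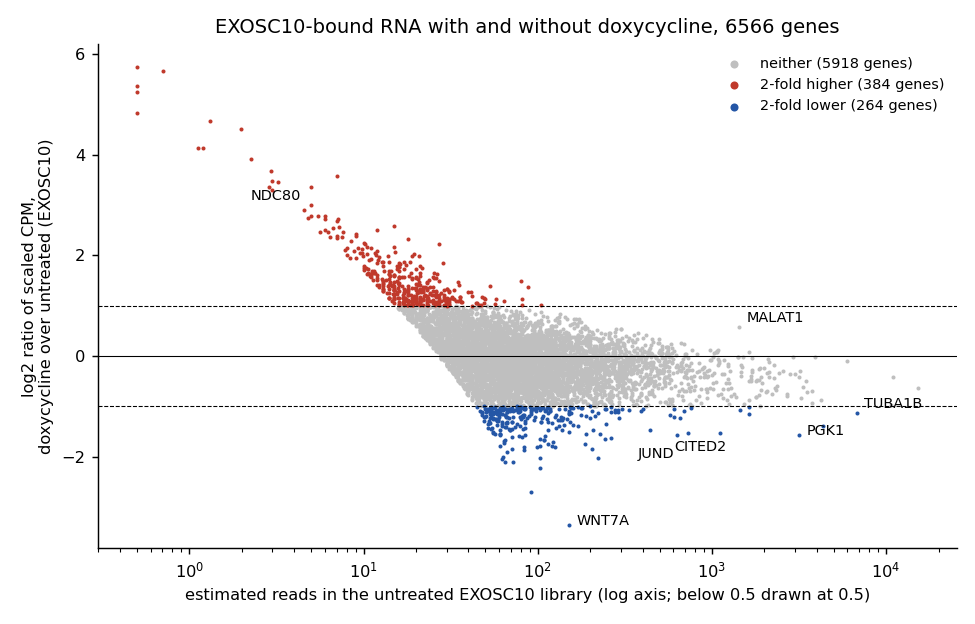
The log2 ratio of scaled CPM, doxycycline over untreated, is plotted against the reads of the untreated EXOSC10 library (log axis), 1 point for each of 6566 genes. The 384 genes called higher (red) lie mostly at few untreated reads, where the minimum of 100 reads draws the slanted edge, and the 264 called lower (blue) reach into the well-covered genes PGK1, CITED2, JUND and TUBA1B.

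Of the genes that the study's design names, CERS4 and CD274, the PD-L1 gene, had no entry analysed here, which leaves induction of CerS4 unchecked. CAPRIN1 stood at 95 scaled CPM untreated and 89.1 with doxycycline in the EXOSC10 libraries, from 499 and 1251 reads. Its ratio of -0.09 (-0.24 to 0.06) spans equality. With IgG it stood at 316 and 250 scaled CPM, above both EXOSC10 libraries. That order depends on the scaling: with plain CPM CAPRIN1 is highest in the doxycycline EXOSC10 library. EXOSC10 mRNA itself had 15.0 and 78.0 reads, too few for a call.

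Among genes with 200 reads in each EXOSC10 library, the interval farthest from 0 was that of PGK1, which encodes the glycolytic enzyme phosphoglycerate kinase and lies on chromosome X from 78104248 to 78129295 (GRCh38.p14). PGK1 stood at 603 scaled CPM untreated and 202 with doxycycline with EXOSC10, from 3171 and 2836 reads, a ratio of -1.58 (-1.65 to -1.50). With IgG it went from 1097 untreated to 1855 with doxycycline, the opposite way. PGK1 was thus lowest in the doxycycline EXOSC10 library and highest in the doxycycline IgG library.

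CITED2, a transcriptional co-regulator that competes with hypoxia-inducible factor for CBP and p300, stood at 212 scaled CPM untreated and 72.9 with doxycycline, a ratio of -1.53 (-1.66 to -1.41). Its IgG values were 396 and 494. EGLN1, the prolyl hydroxylase that marks hypoxia-inducible factor for destruction, stood at 50.2 and 16, a ratio of -1.64 (-1.91 to -1.39), with IgG at 86.0 and 133. In scaled CPM both genes share the pattern of PGK1, lower with doxycycline under EXOSC10 and higher under IgG. The IgG part depends on the scaling: with plain CPM the IgG value of CITED2 is lower with doxycycline and that of EGLN1 is about level. JUND, a subunit of the AP-1 transcription factor, stood at 119 and 40.0 scaled CPM, a ratio of -1.57 (-1.74 to -1.41), while IgG was level at 420 and 445. DYNLL2, a dynein light chain, stood at 84.1 and 30.4, a ratio of -1.46 (-1.67 to -1.28), with IgG at 133 and 140.

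The histone genes H2AW and H2AC16 moved the same way under both antibodies. H2AW stood at 828 scaled CPM untreated and 316 with doxycycline with EXOSC10, a ratio of -1.39 (-1.45 to -1.33), and at 2717 and 1446 with IgG. H2AC16 had ratios of -1.64 with EXOSC10 and -1.11 with IgG. Histone genes are close copies of one another and held fractions of reads, so their values are uncertain one by one. IGFBP7, a secreted protein that binds insulin-like growth factors, had a ratio of -1.52 (-1.68 to -1.37), and -1.02 once the overlapping gene POLR2B was added. PSMD1, a proteasome base subunit, had -1.36, and -0.85 together with the overlapping HTR2B, so it did not hold at 2-fold. SRSF9, a splicing factor, had -1.23, and SETSIP, a near copy of the histone chaperone gene SET, had -1.55.

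On the other side, no gene with 200 reads in each library reached 2-fold. The nuclear long non-coding RNA MALAT1 stood at 273 scaled CPM untreated and 406 with doxycycline, from 1435 and 5705 reads, a ratio of 0.57 (0.49 to 0.66). Its IgG values of 164 and 273 were also higher with doxycycline, by 0.74. NORAD, a cytoplasmic long non-coding RNA that binds Pumilio proteins, stood at 71.4 and 98.0, a ratio of 0.46 (0.29 to 0.63), with IgG at 0.26. CLIC4, an intracellular chloride channel protein, stood at 57.3 and 83.2, a ratio of 0.54, with IgG at 0.87. For these 3 RNAs the EXOSC10 ratio and the IgG ratio had the same sign.

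The remaining genes of that side did not share 1 IgG pattern. The peptidyl-prolyl isomerase gene FKBP1A had an EXOSC10 ratio of 0.54 and an IgG ratio of -0.19, and the peroxiredoxin gene PRDX1 had 0.53 and -0.50. HNRNPC, which encodes a nuclear RNA-binding protein, had 0.43 and -0.01 (-0.85 with EXOSC10 in its most abundant entry), and SUPT16H, which encodes a subunit of the histone chaperone FACT, had 0.47 and 0.40. PRKDC, the catalytic subunit of DNA-dependent protein kinase, had 0.48 and 0.18, MAL2, a protein of transcytosis, had 0.54 and 0.68, and CD164, a sialomucin, had 0.41 and 0.72. CP, which encodes ceruloplasmin, had 0.47 with both antibodies, and NACA, of the nascent polypeptide-associated complex, had 0.47 and 0.26.

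**Figure D2:**
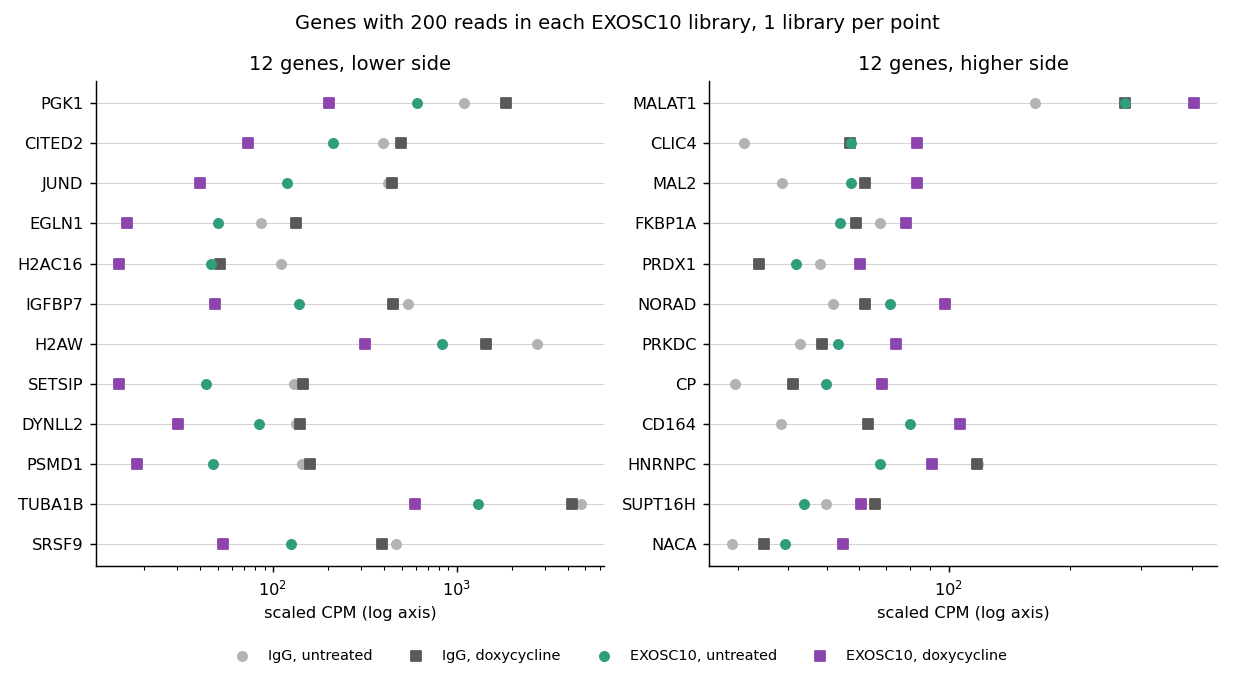
Scaled CPM (log axis) in all 4 libraries for the 12 genes on each side whose intervals lay farthest from 0 among genes with 200 reads in each EXOSC10 library, 1 point per library. On the lower side the doxycycline EXOSC10 library (purple squares) is the lowest of the 4 for each gene, as for PGK1 at 202 against 603 to 1855, and the higher side has smaller steps, as for MALAT1 at 273 and 406.

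Each of the 37 well-covered lower genes had a lower scaled CPM with EXOSC10 than with IgG in both treatments, which also held for 565 of the other 932 well-covered genes (60.6%). Of the 83 well-covered genes whose interval lay above 0, 26 did so (31.3%). The order between antibodies depends on the scaling, and the calls were chosen by the EXOSC10 ratio, so these counts describe the genes.

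Across all genes, the EXOSC10 ratio went with the level of the same gene in the IgG libraries, which the ratio does not use. Genes with 1000 or more IgG reads had a median EXOSC10 ratio of -0.50, those with 300 to 1000 had -0.27, those with 100 to 300 had -0.10 and those with 30 to 100 had 0.04. Of the 361 genes with 1000 or more IgG reads, 0 were 2-fold higher and 24 were 2-fold lower. The order from 100 reads up was the same with at least 50 reads asked of each EXOSC10 library, at -0.13, -0.28 and -0.50. The lower end was not: genes with 10 to 30 IgG reads had a median of 0.28 with 100 reads together and of -0.52 with 50 reads in each library, the first condition admitting genes with few untreated reads. Only the part of the pattern above 100 IgG reads held under each of these minimums. By EXOSC10 reads, genes with 2000 or more had a median ratio of -0.32, and a gene's abundance and its IgG background were not separated.

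**Figure D3:**
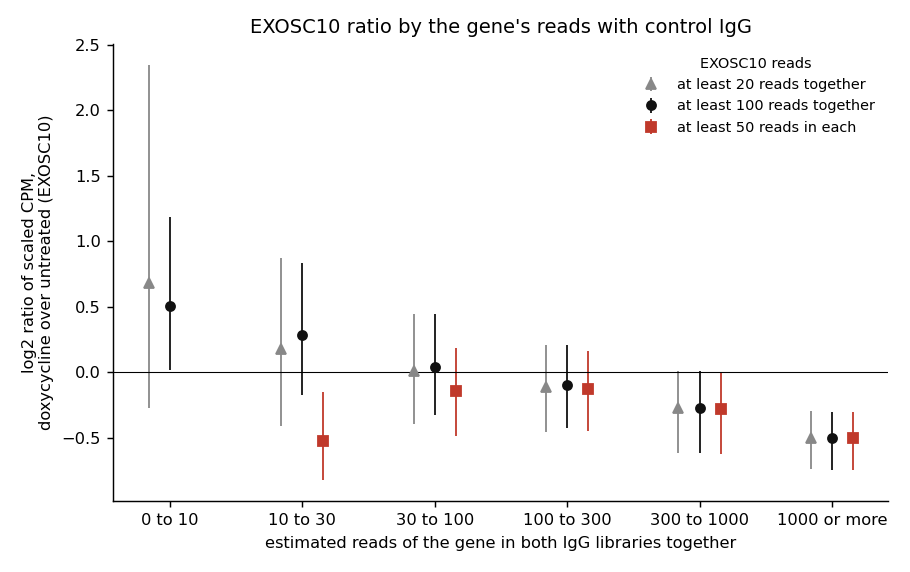
Median EXOSC10 log2 ratio, doxycycline over untreated, with quartiles as bars, for genes binned by their reads in both IgG libraries, under 3 minimums on EXOSC10 reads; a bin of 4 genes is not drawn. From 100 IgG reads up the 3 series fall together to -0.50, and at 10 to 30 IgG reads they part, at 0.28 and -0.52.

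Splicing factors and hnRNPs, which cut and package pre-mRNA, lay below the median of all genes, with 2 of 113 genes higher by 2-fold, 7 lower and a median of -0.35 against -0.06 for all genes. The list median was below that of all genes by 0.18 to 0.42 in each of the 15 settings tried, the main one included. The scalings among them move the list and all genes nearly alike, so they test this little. SRSF9 was among the lower members, HNRNPH2, an hnRNP that overlaps a read-through with RPL36A, stood at -1.31 alone and at -0.51 with it, and SNRNP48 of the minor spliceosome was higher at 2.09, from 12 and 146 reads. The list is rich in genes with IgG reads: 83 of 113 had 100 of them (73.5%), against 44.6% of all genes tested. With each gene set against the median of its own bin of IgG reads, a step chosen after the values were seen, the list median was -0.13.

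Translation factors had 1 gene 2-fold higher and 1 lower of 60, and a median of -0.27. Against genes of the same IgG bin the median was -0.04. EIF4G2, a translation regulator related to eIF4G, stood at 806 scaled CPM untreated and 437 with doxycycline, a ratio of -0.88 (-0.94 to -0.83), just short of 2-fold. ETF1, the release factor that reads stop codons, had -0.91, and EIF2AK2, the double-stranded RNA kinase PKR, was higher at 1.49 but at 0.69 with the overlapping GPATCH11. DEAD and DEAH box helicases had 0 of 39 genes in either direction and a median of -0.13, with DHX15 of the spliceosome at -0.93 and DDX3X, a helicase of translation start, at -0.88.

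The partners of Caprin-1, G3BP and PD-L1 had 0 of 23 genes 2-fold higher and 0 lower, with a median of -0.32. Set against their bins of IgG reads the median was -0.06. With 50 reads in each library the list median was -0.39, against -0.21 for all genes, and -0.00 within the bins. FXR2, a relative of the fragile X protein, had -0.97 (-1.13 to -0.82), FMR1, the fragile X protein gene itself, had -0.90, G3BP2, a stress granule scaffold, had -0.87 (0.50 in its most abundant entry), and YBX1, a cold-shock domain RNA-binding protein, had -0.72 (-0.78 to -0.66). The 4 genes stood at 246 to 5353 IgG reads in the untreated IgG library.

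Messenger RNA decay factors of the cytoplasm had 1 gene higher and 2 lower of 42, with a median of -0.13. Both lower genes belong to the CCR4-NOT deadenylase: its scaffold CNOT1 stood at 110 scaled CPM untreated and 48.9 with doxycycline (-1.16, -1.33 to -1.01), and the catalytic subunit CNOT6L at 18.1 and 7.34 (-1.28, -1.72 to -0.88). With IgG, CNOT1 stood at 401 and 695 and CNOT6L at 52.8 and 85.8, higher with doxycycline in scaled CPM, by less with plain CPM. The nuclear exosome and its cofactors had 1 gene higher and 2 lower of 17. ZC3H18, which links the cap-binding complex to the exosome, was lower at -1.04 (-1.42 to -0.70), and ZCCHC8, the scaffold of NEXT, was higher at 1.36 (0.63 to 2.30) from 15.0 and 107 reads, but stood at 0.55 in the more abundant of its 2 entries. NRDE2, a partner of the exosome's helicase, was lower at -2.10 alone and stood at -0.64 with the overlapping PSMC1. TENT4A, a poly(A) polymerase of TRAMP, had -0.84.

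Writers, readers and erasers of the m6A mark had 0 of 15 genes in either direction. YTHDF2, the reader that brings marked mRNA to decay, stood at 67.4 scaled CPM untreated and 34.2 with doxycycline, a ratio of -0.97 (-1.18 to -0.78), with IgG at 0.27, and its most abundant entry alone stood at 0.20. The demethylase FTO stood at 0.98 on the other side, from 24.2 and 130 reads. Ribosome biogenesis genes had 5 of 72 higher and 0 lower, with a median of 0.12. NOL12, a nucleolar RNA-binding protein, was higher at 3.01 (1.99 to 4.90), from 5.00 and 127 reads, RRP1B, of the large ribosomal subunit's assembly, at 1.18 and the nucleolar protein NOL6 at 1.15, while POLR1B, a subunit of RNA polymerase I, stood just above -1 (-1.44 to -0.59) over 4 entries and at 2.55 in the most abundant of them.

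Proteasome genes had 3 of 41 higher (7.32%, against 5.85% of all genes) and 4 lower (9.76%, against 4.02%). Their median was -0.31, and -0.13 within their bins of IgG reads. PSMA5, an alpha subunit of the core, stood at 147 scaled CPM untreated and 73.7 with doxycycline (-0.99, -1.13 to -0.86). PSMD3 of the lid was lower at -1.25 (-1.59 to -0.93), and PSMD6 of the lid was higher at 1.84 (1.16 to 2.74). Cytosolic chaperones had 1 of 53 higher and 2 lower, with HSPA8, the constitutive HSP70, at -0.75 and the J-protein DNAJA3 lower at -1.09. Among cullin ligases and deubiquitinases 3 of 112 were higher and 3 lower. The ubiquitin-like modifier of cullins, NEDD8, was higher at 1.87 and the F-box protein FBXL14 lower at -1.40.

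Genes of DNA repair and checkpoints stood on the higher side, with a median of 0.34. Of 41 genes 8 were 2-fold higher (19.5%, against 5.85% of all genes) and 0 lower. CHEK1, the kinase of the replication checkpoint, had 1.12 reads untreated and 99.3 with doxycycline, a ratio of 4.14 (2.65 to 9.90). The exonuclease EXO1 had 5.48 and 118 reads (2.79, 1.79 to 4.57), and the nuclease gene ERCC4 had 16 and 152 (1.77, 1.08 to 2.67). CHEK1 and EXO1 held fractions of reads, and in the untreated IgG library CHEK1 had 3.93, EXO1 19.0 and ERCC4 11.0 reads. With 50 reads in each EXOSC10 library 18 genes were left, 0 of them 2-fold higher, where 0.23% of all genes were. Their median was -0.10, against -0.21 for all genes. The list's higher calls thus lay at few untreated reads, as did most of the 384 over all genes, so this is not particular to the list.

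Genes of cell division also had higher calls at few untreated reads. Kinetochore and spindle genes had 6 of 55 higher (10.9%, against 5.85% of all genes) and 2 lower, with a median of 0.11. With 50 reads in each library 0 of 28 were higher, where 0.23% of all genes were. NDC80, a microtubule-binding kinetochore protein, stood at 0.952 scaled CPM untreated and 11.5 with doxycycline with EXOSC10, and at 4.97 and 5.27 with IgG. PRC1, which bundles antiparallel microtubules, was higher at 1.19, the minus-end motor KIFC1 was lower at -1.22, and CENPO of the inner kinetochore was lower at -1.26 alone but stood at -0.53 with the overlapping ADCY3 and at 1.22 in its most abundant entry. Centrosome genes had 3 of 25 higher (12%) and 0 lower, the higher ones including HAUS3 of the augmin complex at 1.34. At 50 reads in each library 0 of 15 were higher, again beside 0.23% of all genes. DNA replication genes had 6 of 34 higher (17.6%) and 2 lower (5.88%, against 4.02% of all genes), with a median of -0.10. At 50 reads in each library 1 of 19 was higher and 2 were lower. The lower ones were the polymerase subunits POLE (-1.42) and POLA1 (-1.17, but 0.10 in its most abundant entry), and the higher ones included GINS2 of the replicative helicase at 1.60, which stood at -0.14 with the overlapping GSE1.

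Chromatin remodelling and histone methylation genes had 4 of 70 higher and 2 lower, with a median of -0.30, and of -0.12 within their bins of IgG reads. KDM2B, a histone demethylase bound to CpG islands, was lower at 28.7 scaled CPM untreated and 9.90 with doxycycline (-1.52, -1.88 to -1.19). AEBP2, a partner of Polycomb repressive complex 2, was lower at -1.37, and WDR5, a shared subunit of histone methyltransferases, was higher at 1.68 from 13.0 and 118 reads. Of the cohesin and condensin genes 0 of 21 were higher and 1 was lower, NCAPG at -1.08, which stood at -0.94 with the overlapping LCORL, while the cohesin regulator PDS5A stood at -0.98 with EXOSC10 and at 1.12 with IgG. Zinc finger genes named ZNF had 10 of 89 higher (11.2%, against 5.85% of all genes) and 2 lower. With 50 reads in each library 0 of 45 were higher, where 0.23% of all genes were. ZNF70 was higher at 2.39 and ZNF609 lower at -1.34. Elongation and Mediator genes had 1 of 83 higher, the cyclin gene CCNC at 1.44 (0.93 in its most abundant entry), and 2 lower, one of them the kinase gene CDK13 at -1.07.

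Among genes of membrane traffic, RAB GTPases had 2 of 26 higher and 1 lower and the lowest median of the lists with 20 or more members, -0.40. It was -0.49 with 50 reads in each library, where the proteasome list was lower at -0.51, and -0.22 within the bins of IgG reads. RAB11A, of recycling endosomes, had -0.89 (-1.08 to -0.70) and RAB21, which moves integrins, -0.75, whereas RAB27B, of secretory vesicles, was higher at 2.14 from 11.0 and 139 reads. Coat proteins, SNAREs and tethers had 11 of 104 higher (10.6%, against 5.85% of all genes) and 3 lower, and 1 of 72 higher and 3 lower with 50 reads in each library. VPS33A, of the HOPS tether, was higher at 2.43 and VPS53, of the GARP tether, was lower at -1.60. YIPF1, of the Golgi membrane, had no full read untreated and 113 with doxycycline, a value that was not whole. In the V-ATPase and lysosome list 1 of 44 was higher, OSTM1 at 2.78, and 1 lower, the proton pump subunit ATP6V1H at -2.70.

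Autophagy genes had 1 of 29 higher, the scramblase TMEM41B at 2.16, and 1 lower, the ATG12 partner ATG5 at -1.09, which stood at 3.20 in the more abundant of its 2 entries. Glycosylation genes had 3 of 72 higher and 2 lower: the proteoglycan xylosyltransferase XYLT2 was lower at -1.78 and the heparan sulfate sulfotransferase HS6ST1 at -1.17. Solute carriers had 3 of 96 higher and 7 lower, with the zinc transporter SLC39A3 at -1.66 and the glycine transporter SLC6A9 at -1.30.

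**Figure D4:**
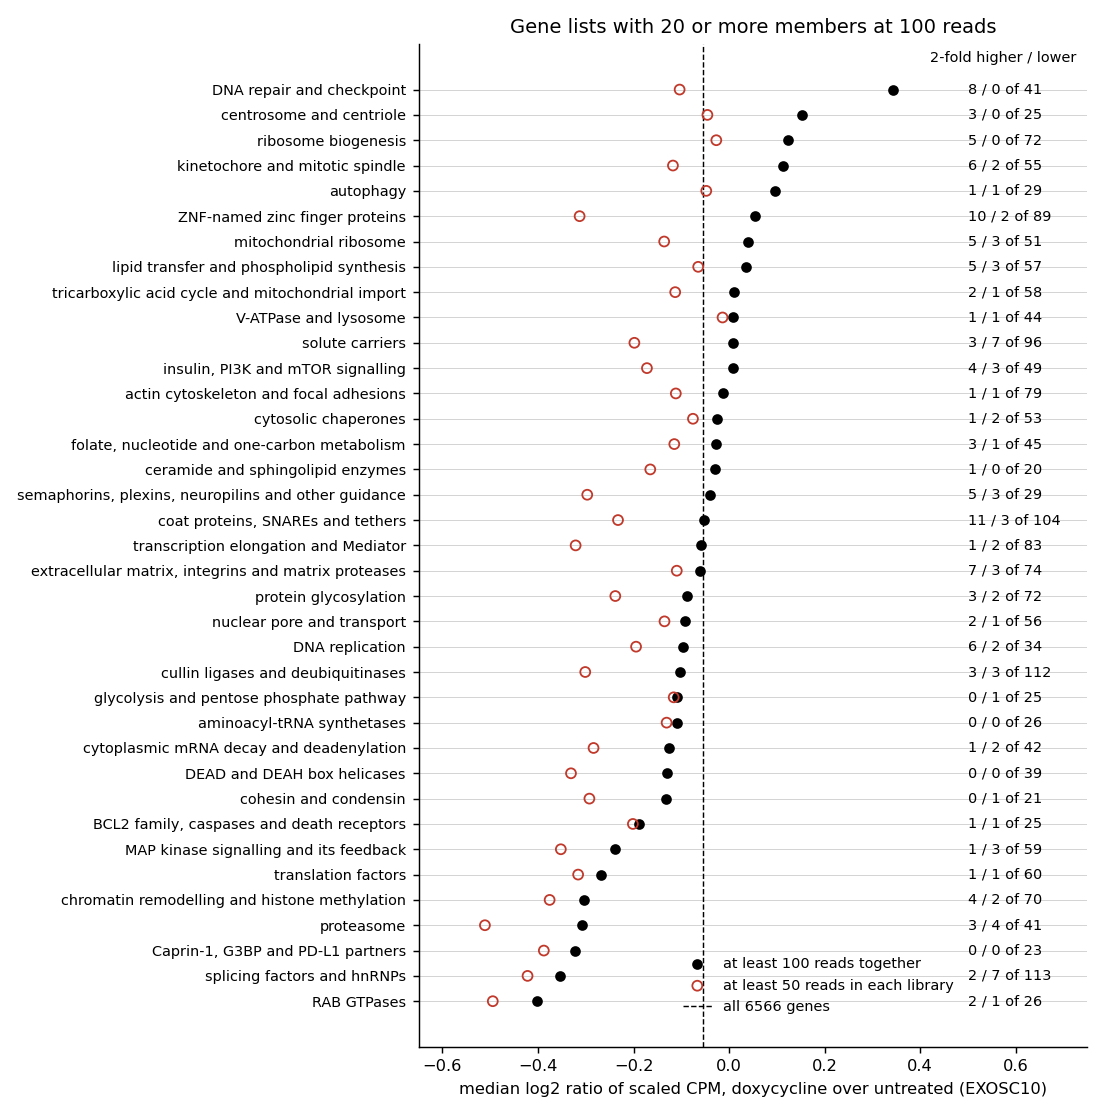
Median EXOSC10 log2 ratio of the lists with 20 or more members that are reported here, with 100 reads together (black) and with 50 reads in each library (red rings); the dashed line is the median of all 6566 genes, -0.06, and the counts are genes 2-fold higher and lower of those with 100 reads. DNA repair stands at 0.34 and -0.10 under the 2 minimums, and RAB GTPases at -0.40 and -0.49; with plain CPM the points lie farther right, and the median of all genes is 0.97.

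Semaphorins, plexins, neuropilins and other genes of axon guidance had 5 of 29 genes higher (17.2%, against 5.85% of all genes) and 3 lower. With 50 reads in each library 0 of 14 were higher and 3 lower, where 0.23% and 5.63% of all genes were. NEO1, the netrin and repulsive guidance receptor neogenin, stood at 39.2 scaled CPM untreated and 10.8 with doxycycline (-1.85, -2.18 to -1.56), and at 144 and 233 with IgG. NRP2, the co-receptor of semaphorins and VEGF, stood at 35.6 and 10.5 (-1.75, -2.09 to -1.45). SEMA6B, a transmembrane semaphorin, and the ephrin ligand EFNA1 were higher at 2.39 and 1.86, each from under 20 reads untreated. The matrix, integrin and protease list had 7 of 74 higher and 3 lower (median -0.06), with the laminin chain LAMB3 at 1.90, the metalloproteinase ADAM12 at 2.56, and ADAM22, a related membrane protein without protease activity, at 3.68 from 2.96 reads untreated. Actin and focal adhesion genes had a median of -0.01 and stood 0.21 above the genes of their IgG bins. The lower member was the non-muscle myosin MYH10, at -1.65 alone and -0.69 with the overlapping NDEL1.

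In MAP kinase signalling 1 of 59 genes was higher and 3 were lower, with a median of -0.24. Besides JUND, the lower genes were RPS6KA1, a kinase downstream of ERK (-2.04), and SPRY2, a feedback inhibitor of receptor tyrosine kinases (-1.08); the ETS factor ETV5 was higher at 1.15. Of the insulin, PI3K and mTOR genes 4 of 49 were higher and 3 lower. RPTOR, the mTORC1 scaffold, was lower at -1.31 with 71 and 75 reads, and stood at -0.09 in the more abundant of its 2 entries. The kinase STK11 was lower with both antibodies, at -1.32 and -1.56, but its EXOSC10 ratio was -0.89 with the overlapping CBARP. In the BCL2 and caspase list the pore-forming BAX was higher at 2.32 (1.70 to 3.17) from 18 and 252 reads, and the BH3-only gene BCL2L11 was lower at -1.10.

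Enzymes of ceramide and sphingolipid metabolism, the pathway of the CerS4 construct, had 1 of 20 genes higher, 0 lower and a median of -0.03. The higher gene was KDSR, which reduces ketosphinganine, at 1.07 (0.49 to 1.76), from 26 and 149 reads. SPTSSB, a small subunit of serine palmitoyltransferase, stood at 0.92, UGCG, the glucosylceramide synthase, at 0.83, and SMPD4, a neutral sphingomyelinase, at -0.76 (1.27 in its most abundant entry). Lipid transfer and phospholipid genes had 5 of 57 higher and 3 lower. PLIN2, which coats lipid droplets, was lower at 11.6 scaled CPM untreated and 3.82 with doxycycline, and the oxysterol-binding relative OSBPL8 was higher at 1.57.

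In glycolysis and the pentose phosphate pathway PGK1 was the 1 gene called of 25. PKM, pyruvate kinase, stood at -0.93 (-0.99 to -0.87), the mutase PGAM1 at -0.63 and the aldolase ALDOA at -0.49. The tricarboxylic acid cycle and mitochondrial import list had 2 of 58 higher, SUCLG1 of succinate ligation at 1.78 and TIMM50 of the inner-membrane translocase at 1.48, and 1 lower, PDP1, a phosphatase of pyruvate dehydrogenase, at -1.35 over 4 entries and at 3.48 in the most abundant of them. Folate and nucleotide genes had 3 of 45 higher and 1 lower. GGH, which trims folate polyglutamates, was the highest at 3.48 (2.30 to 6.18) but had 3 reads untreated, NT5E, the ecto-nucleotidase CD73, was higher at 1.47, and the nucleotidase ENTPD4 was lower at -1.84. The mitochondrial ribosome had 5 of 51 higher (9.80%, against 5.85% of all genes) and 3 lower, with MRPL33 at 2.50 and MRPS24 at -1.57. With 50 reads in each library 0 of 24 were higher and 3 lower, where 0.23% and 5.63% of all genes were. Aminoacyl-tRNA synthetases had 0 of 26 either way, from GARS1 at -0.91 to LARS1 at 0.68. Nuclear pore and transport genes had 2 of 56 higher, among them GLE1 of mRNA export at 1.47, and 1 lower, the importin IPO4 at -1.66.

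Because PGK1, CITED2 and EGLN1 are induced by hypoxia, a list of 45 hypoxia-induced genes was written after their values had been seen. Of its members 32 had 100 reads: 2 were higher and 4 lower, with a median of -0.01. The lower genes were these 3 and PLIN2, at -1.55. The higher ones were the histone demethylases KDM3A (1.54, 0.85 to 2.45) and KDM4B (1.01, 0.57 to 1.51). VEGFA, the vascular growth factor, stood at 0.70, lactate dehydrogenase LDHA at 0.06, the enolase ENO1 at -0.05 and the stress gene NDRG1 at 0.13. The list did not move as 1 group.

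The upstream 250 bases of the 4 lower genes are shown because hypoxia-inducible factor binds the core ACGTG, in capitals here on either strand, where it reads ACGTG or CACGT. They run 5′ to 3′ on the gene's strand, end 1 base before the start of the transcript, and come from RefSeq (GRCh38.p14), with 1 start taken where the table holds several.
PGK1, chrX:78103998-78104247, plus strand: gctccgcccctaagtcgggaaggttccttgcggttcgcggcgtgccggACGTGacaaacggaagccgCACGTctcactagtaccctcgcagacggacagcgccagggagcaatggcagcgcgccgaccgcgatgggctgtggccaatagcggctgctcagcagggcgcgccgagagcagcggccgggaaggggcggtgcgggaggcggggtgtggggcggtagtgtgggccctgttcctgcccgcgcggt
CITED2, chr6:139374649-139374898, minus strand: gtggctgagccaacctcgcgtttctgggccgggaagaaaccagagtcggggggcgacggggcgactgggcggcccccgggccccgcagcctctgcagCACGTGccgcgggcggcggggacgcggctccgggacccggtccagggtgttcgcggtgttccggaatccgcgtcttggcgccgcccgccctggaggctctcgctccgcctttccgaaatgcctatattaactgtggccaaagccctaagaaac
EGLN1, chr1:231422288-231422537, minus strand: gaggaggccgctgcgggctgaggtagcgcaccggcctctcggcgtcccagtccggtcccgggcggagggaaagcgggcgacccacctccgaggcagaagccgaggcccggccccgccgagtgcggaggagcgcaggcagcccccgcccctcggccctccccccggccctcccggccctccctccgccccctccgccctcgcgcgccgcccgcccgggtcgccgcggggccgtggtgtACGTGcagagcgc
PLIN2, chr9:19127493-19127742, minus strand: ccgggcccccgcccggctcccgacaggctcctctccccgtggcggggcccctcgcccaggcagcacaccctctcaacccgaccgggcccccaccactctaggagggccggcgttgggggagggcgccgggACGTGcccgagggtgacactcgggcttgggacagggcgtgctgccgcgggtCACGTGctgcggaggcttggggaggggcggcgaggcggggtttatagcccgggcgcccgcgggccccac

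All 4 lower genes held ACGTG in the 300 bases from 250 before to 50 after the start, and so did 13 of the 23 list members that were not lower and had a promoter in the table. Over all tested genes with a promoter the share was 28.8%, over the genes called higher 30.8% and over the genes called lower 31.5%. The core was therefore as frequent on the higher side as on the lower side. The ETS core CCGGAAG was in 24.9% of promoters of higher genes, 14.4% of lower ones and 21.2% of all tested. A match describes these letters only.

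**Figure D5:**
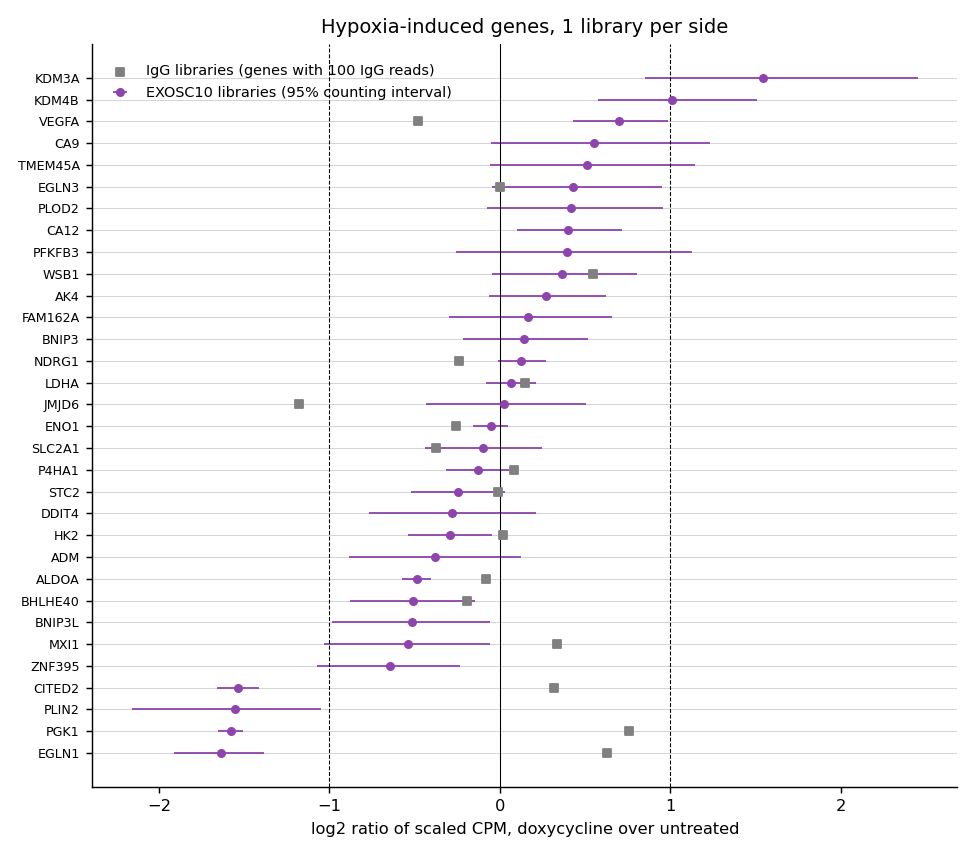
Log2 ratio, doxycycline over untreated, for the 32 hypoxia-induced genes with 100 reads: purple points are the EXOSC10 libraries with their 95% counting intervals, and grey squares the IgG libraries where a gene had 100 IgG reads. EGLN1, PGK1, PLIN2 and CITED2 stand apart at -1.64 to -1.53, while the rest run from -0.65 to 1.54.

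The alpha and beta tubulins were a list also written after its genes had been seen. Of 9 genes 0 were higher and 3 lower (33.3%, against 4.02% of all genes), with a median of -0.64. TUBA1B stood at 1298 scaled CPM untreated and 595 with doxycycline (-1.13, -1.17 to -1.08), with IgG at 4729.8 and 4249.7. TUBA1A had -1.15, TUBA1C had -1.02 and TUBB4B had -0.84. The 3 alpha genes are near-identical and held fractions of reads, so they are not independent of one another. Within the bins of IgG reads the tubulin median was -0.28. The H2A and H2B histones were likewise a list written after values had been seen. Of 16 genes 0 were higher and 6 lower (37.5%, against 4.02% of all genes). Their median was -0.19, and -0.69 with 50 reads in each library, against -0.06 and -0.21 for all genes. The lower histones included H2BC15 at -1.47 and H2AC6 at -1.86.

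Long non-coding RNAs made up 0.935% of the reads outside ribosomal RNA in the untreated EXOSC10 library and 1.28% with doxycycline, against 0.474% and 0.471% with IgG. Of 664 with an entry 50 had 100 reads, with a median of 0.11. Of these 5 were higher and 0 lower, where 5.85% and 4.02% of all genes were. SNHG7, which hosts small nucleolar RNAs, was higher at 2.72 (1.75 to 4.39) from 6.00 and 121 reads, and at 1.63 with the overlapping DIPK1B. LINC00342 was higher at 1.69. By name, and among members with at least 100 reads, 2 of 13 transcripts called antisense or divergent were higher (15.4%). So were 1 of 8 intergenic ones (12.5%) and 2 of 10 hosts of microRNAs or small nucleolar RNAs (20%). Of each list 0 were lower, and the medians were 0.19, 0.07 and 0.28. With 50 reads in each library 0 of 5, 0 of 3 and 0 of 3 were higher, where 0.23% of all genes were. Their medians were -0.13, 0.04 and 0.00. SNHG3, SH3RF3-AS1 and the read-through TIMM23B-AGAP6 were called as well, but together with the genes they overlap the first 2 stood at 0.38 and 0.80, short of 2-fold, and the last at 1.03. TALAM1, the antisense partner of MALAT1, had -0.75 with EXOSC10 and a 2-fold lower value with IgG, and no source used here gives the strand of the reads. The small nuclear RNAs, U1 genes and 7SK, ran from -0.72 to -0.67 over 6 entries. All but 7SK are copies or variants of U1, and several entries hold the same value, so they are not independent of one another. The 4 genes of RNase P, RNase MRP and the signal recognition particle had a median of -0.57. Over all 5 entries of that class the share of reads outside ribosomal RNA went from 1.20% to 0.752% with EXOSC10. With IgG it went the other way, from 0.292% to 1.16%. Small nuclear RNAs, over 9 entries, went from 0.229% to 0.159% with EXOSC10 and from 0.0544% to 0.169% with IgG.

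Markers of the cell line were present. Of 15 basal and mesenchymal markers of MDA-MB-231 all had an entry, and 0 of the 12 with 100 reads were called. VIM, vimentin, stood at -0.34, MSN, moesin, at -0.82 and EGFR at 0.81. Of 20 luminal markers 17 also had an entry, so having an entry does not set these lists apart. Of the 8 with 100 reads 0 were called. KRT8 stood at -0.82 alone and at -0.26 with the overlapping KRT18, and FOXA1 stood at 0.66. Only 4 of 15 fibroblast and endothelial markers and 2 of 17 blood markers had an entry, and the collagen gene COL1A2 was the 1 of these called, at -1.40 from 66.0 and 65.0 reads.

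Medians by chromosome ran from -0.14 to 0.13, and those by gene span, in 5 equal groups, from -0.11 to -0.02; differences between these groups were not tested. Among genes of whole reads, WNT7A, a secreted Wnt ligand, was the lowest, at 28.9 scaled CPM untreated and 2.64 with doxycycline with EXOSC10 and at 36.4 and 140 with IgG. ZEB2, a repressor active in epithelial-mesenchymal transition, stood at 42.4 and 10.3 with EXOSC10 and at 117 and 132 with IgG.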

How the data were processed

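RNA was precipitated with EXOSC10 antibody or IgG and sequenced, 1 library per group, with a SMARTER kit for mRNA-Seq and 500 ng of input, per the labels' protocols. The authors deposited CPM values, read as such because each column sums to 1000000 apart from a constant of 0.0001, which was taken off. STAR, Partek and hg38 are named without versions per the submitters' processing notes. How reads were counted is not given in the sources used here. All 24015 entries were summed to 12838 symbols. Reads were estimated as CPM over the worth of 1 read (0.236 and 0.181 CPM in the EXOSC10 libraries), and 70.3% and 67.5% of genes were within 0.05 of whole reads, so no count model was used. TMM scaling trimmed 30% of ratios and 5% of levels over 4 libraries. Intervals are exact Clopper-Pearson 95% intervals, taken on estimated reads, whole or not, without the 0.2 CPM. Steps were tested on simulated data. Names (12545 current, 194 older, 99 unmatched), coordinates and promoters are RefSeq's (GRCh38.p14).

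Named were the study's genes, 12 each way with 200 reads in each library, 12 each way of whole reads, 4 per list and 5 long non-coding RNAs each way, ranked by the interval bound nearest 0; other names were chosen after their values were seen, and some genes and a list that meet these rules are not reported here. The genes and the 47 lists were chosen with earlier results of these data known. Python 3.11.15, numpy 2.4.6, pandas 2.3.3 and scipy 1.17.1 were used.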

Additional observations from a re-analysis of the deposited data

Results flagged for a closer look

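Of 2928 genes with 100 reads in both pairs of libraries, 15 were 2-fold changed by doxycycline with both antibodies, and 9 of these in opposite directions. The difference between the antibodies was not tested, since each side is 1 library. Lower with EXOSC10 and higher with IgG were WNT7A (-3.36 and 1.94), MYH10 (-1.65 and 1.15), SHOC2, a scaffold of RAS signalling (-1.53 and 1.01), CASK, a membrane scaffold (-1.37 and 2.85), and the kinase FYN (-1.22 and 1.56). Higher with EXOSC10 and lower with IgG were VPS25 of the ESCRT machinery (1.05 and -1.29), DLG4 (1.27 and -4.12), DNM1 (2.28 and -2.76) and TMEM243 (2.59 and -3.88). In their most abundant entry alone DLG4 stood at 0.93 and TMEM243 at 0.71 with EXOSC10, short of 2-fold. VPS25 fell short of 2-fold with EXOSC10 under median-of-ratios factors. WNT7A, CASK and VPS25 had whole reads in all libraries. MYH10, SHOC2, DLG4, DNM1 and TMEM243 overlap another gene with an entry.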

How the results depend on the processing

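The counts of genes 2-fold higher and lower with EXOSC10, 384 and 264, depended on the setting. They were 3149 and 8 with total CPM, 587 and 144 by the total outside ribosomal RNA, 1847 and 885 with a minimum of 20 reads, 5 and 30 with 500 reads, 168 and 164 with whole reads only, and 1128 and 683 with the highest entry of a symbol alone. Only the higher count moved by over 1.5 times with 100 IgG reads (25) and with 50 reads in each library (10), and only the lower one with median of ratios (411). A minimum mean of 10 scaled CPM, chosen after the values were seen, gave 43 and 153. The upper quartile (489 and 176), TMM of the EXOSC10 pair without ribosomal RNA (404 and 281) and pseudocounts of 0.05 (403 and 279) and 1 CPM (292 and 201) stayed within that factor of both counts. The IgG counts, 79 and 115, were 12 and 802 with total CPM and 121 and 72 by the total outside ribosomal RNA. Of the 648 genes at 2-fold, 634 kept their sign with total CPM, and TUBA1C turned to 0.0186. All 648 kept their sign under the other scalings and the pseudocounts, which was fixed in advance and is no check. Those scalings move ratios by 0.18 at most before the pseudocount, and a pseudocount on both sides cannot turn a sign. With the highest entry of a symbol alone 622 kept their sign, and the named ATG5 (3.20), CENPO (1.22), PDP1 (3.48) and POLA1 (0.10) turned from lower to higher. Medians by protein length were not run, since no protein table was used here. No replicate could be left out. No paired analysis was possible because each group has 1 library.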
